A study of Homo sapiens with 6 samples.

Results

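The glucocorticoid receptor gene NR3C1 and 7 genes known as targets of steroid receptors in prostate cells (FKBP5, TSC22D3, TMPRSS2, SLC45A3, KLK2, KLK3 and FOLH1) were followed in PC3 cells, a line established from a bone metastasis of human prostate cancer. The members were all probe sets whose platform annotation names 1 of these 8 genes and no other, which gave 25 of the 54675 probe sets of the array. Of the 25, 12 averaged log2 4 or more, the filter on low values used for testing, and these belong to 6 of the 8 genes. KLK2 and FOLH1 had no probe set past it. The 6 genes passed the filter on every array, with a lowest value of 6.26, so no gene entered the tests through a single group.

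Total RNA was collected 72 h after transfection with scrambled siRNA, with siRNA against VEGF-C, a growth factor of lymphatic vessels, or with siRNA against NRP-2, a receptor partner to which VEGF-C binds, and hybridised to 6 Affymetrix HG-U133 Plus 2.0 arrays, 2 for each of the 3 groups. All cells grew in RPMI medium with 10% fetal bovine serum, and the labels name no added steroid. The siRNA against each target was a pool, and the labels name different suppliers for the 2 targets, so target, pool and supplier cannot be told apart. The arrays of a group are listed as separate samples without mention of separate cultures, so each p-value reflects how far these arrays differ, and that spread may be technical. In RNA from whole cultures, fewer cells of a kind and less RNA per cell cannot be told apart.

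Steroid receptors are transcription factors that are switched on by a hormone. Without hormone the glucocorticoid receptor is held in a complex of HSP90 and co-chaperones. With hormone it enters the nucleus and binds short DNA elements built from a pair of facing half-sites, which receptors for androgens can also bind. In luminal cells of the prostate, the secretory cells that line the ducts, such elements drive the secreted proteases KLK2 and KLK3, the membrane protease TMPRSS2 and the transporter SLC45A3, while FKBP5 and TSC22D3 are classical glucocorticoid-induced genes in many tissues. PC3 cells are known to grow without androgen.

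Promoter sequences are shown for KLK3 and KLK2, neighbouring genes whose transcripts read at the floor of these arrays in nearly every probe set, and for SLC45A3, which was measured well above it. Each is the 250 bases before the gene's start in RefSeq's tables, 5′ to 3′ on the gene's own strand, in build GRCh38.p14. The KLK3 window is chr19:50854665-50854914 on the plus strand, that of KLK2 is chr19:50873189-50873438 on the plus strand, and that of SLC45A3 is chr1:205680510-205680759 on the minus strand. Capitals mark matches on either strand to NGAACAGCAAGTGCT, the bases of the KLK3 window that begin at its half-site AGAACA, with the first base left free. It overlaps that half-site and was chosen after the sequences were seen.
KLK3: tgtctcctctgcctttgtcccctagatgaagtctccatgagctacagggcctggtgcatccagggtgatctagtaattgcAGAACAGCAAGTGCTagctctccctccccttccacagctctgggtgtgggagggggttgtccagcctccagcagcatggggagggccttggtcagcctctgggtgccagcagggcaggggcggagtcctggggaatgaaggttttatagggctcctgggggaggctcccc
KLK2: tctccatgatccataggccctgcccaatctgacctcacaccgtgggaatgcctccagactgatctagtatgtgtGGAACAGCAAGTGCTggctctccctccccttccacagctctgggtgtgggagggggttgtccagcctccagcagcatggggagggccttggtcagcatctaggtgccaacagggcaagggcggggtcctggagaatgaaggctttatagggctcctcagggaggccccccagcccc
SLC45A3: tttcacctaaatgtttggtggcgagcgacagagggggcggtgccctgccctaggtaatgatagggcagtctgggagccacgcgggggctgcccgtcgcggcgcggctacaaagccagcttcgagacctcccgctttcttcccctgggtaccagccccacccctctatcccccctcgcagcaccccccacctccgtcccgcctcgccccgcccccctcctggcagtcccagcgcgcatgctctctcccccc

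The element lay 170 bases before the start in KLK3, as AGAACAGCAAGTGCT, and 176 bases before it in KLK2, as GGAACAGCAAGTGCT. Counted from 1 at the 5′ end of the element, KLK2 differed from KLK3 by A1G. These were the only 2 of 35116 windows of the same length that matched the element with its first base free. KLK3 matched by construction, since the element was copied from its window. The KLK3 and KLK2 windows were 85.1% identical over 241 aligned bases. The SLC45A3 window had no match. RefSeq's tables held windows for 6 of the 8 genes (not for TMPRSS2 and FOLH1), 16 windows in all counting alternative starts. The half-site AGAACA, searched on both strands, was in 1 of the 16, that of KLK3, where it is part of the element, and in 12.4% of all windows. The full palindrome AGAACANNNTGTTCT was in none of the 16, which says only that these letters are not within 250 bases before these starts.

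The medians of the 6 arrays lay between 2.99 and 3.06 on the log2 scale. VEGFC was 15.4-fold lower with its own siRNA (limma's adjusted p = 0.204). The 1 NRP2 probe set past the filter read 4.77 and 4.92 with scrambled siRNA and 3.41 and 2.81 with NRP-2 siRNA, near the array medians, so the fitted difference of -1.74 (adjusted p = 0.213) is limited by the floor. With VEGF-C siRNA this probe set read 5.51 and 6.01, a difference of +0.91 from scrambled siRNA (limma's adjusted p = 0.257). It passed the filter through the groups where it was high, and the 10 other NRP2 probe sets did not pass. Among cell type markers, the epithelial keratins KRT8 (lowest array 11.74) and KRT18 (13.72) and EPCAM (14.31) were high on all arrays. The secretory luminal markers MSMB, ACP3 and KLK4 did not exceed 3.95 on any array, and 7 of 10 measured luminal markers passed the low-value filter. The means of the measured luminal markers ran from 10.60 to 10.76 over the 6 arrays. All 7 markers of the PC3 line passed, as did 3 of 6 basal, 1 of 7 neuroendocrine (ENO2), 3 of 7 fibroblast (COL1A1, COL3A1 and ACTA2) and 1 of 4 immune markers (LYZ). The array means of these 4 lists ran from 6.73 to 6.98, 3.11 to 3.33, 4.70 to 5.05 and 2.95 to 3.65. Their part in the results was not tested. G2 and mitosis genes differed more between arrays. The mean of 21 such genes was 10.28 and 8.63 on the scrambled arrays, 11.15 and 10.42 on the VEGF-C arrays, and 10.99 and 9.95 on the NRP-2 arrays. Where a difference is given after adjustment for this level, that mean entered the fit as a covariate. Both VEGF-C arrays lay above both scrambled arrays in this mean, so level and group cannot be fully told apart there. The part of these genes in the results was not tested.

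The receptor itself was measured strongly and had overlapping values in the 3 groups. The probe set used for NR3C1 (216321_s_at) read 11.15 and 11.02 with scrambled siRNA, 11.40 and 10.95 with VEGF-C siRNA, and 11.10 and 11.01 with NRP-2 siRNA. Both targeting groups overlapped the scrambled group, and the VEGF-C arrays held both the highest and the lowest value. The difference from scrambled siRNA was +0.09 for the VEGF-C group (95% interval -0.37 to 0.54, limma's adjusted p = 0.858) and -0.03 for the NRP-2 group (-0.49 to 0.42, adjusted p = 0.95). The sign of these small differences depended on single arrays, and the VEGF-C difference was -0.14 without the first VEGF-C array.

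The other NR3C1 probe sets had larger differences with VEGF-C siRNA. The 5 differences from scrambled siRNA were +0.09, +0.22, +0.23, +0.50 and +0.50 from the brightest to the dimmest probe set. For the mean of all 5 the VEGF-C difference was +0.31 (SE 0.10, adjusted p = 0.31, unadjusted p = 0.0293), and NRP-2 differed from VEGF-C siRNA by -0.28 (adjusted p = 0.258). On 3 of the 4 probe sets past the filter the groups given VEGF-C and scrambled siRNA overlapped, and on all 4 the first VEGF-C array was the highest of the 6. Probe set 201866_s_at read 7.33 and 7.38 with scrambled siRNA, 8.0 and 7.70 with VEGF-C siRNA, and 7.51 and 7.14 with NRP-2 siRNA. Here both VEGF-C arrays stood above the other 4, with a difference of +0.50 (SE 0.17) from scrambled siRNA and an adjusted p of 0.604 among all probe sets tested one by one. The fifth NR3C1 probe set, 232431_at, was under the filter at 3.32 to 4.41, with its highest value on the second VEGF-C array.

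**Figure D1:**
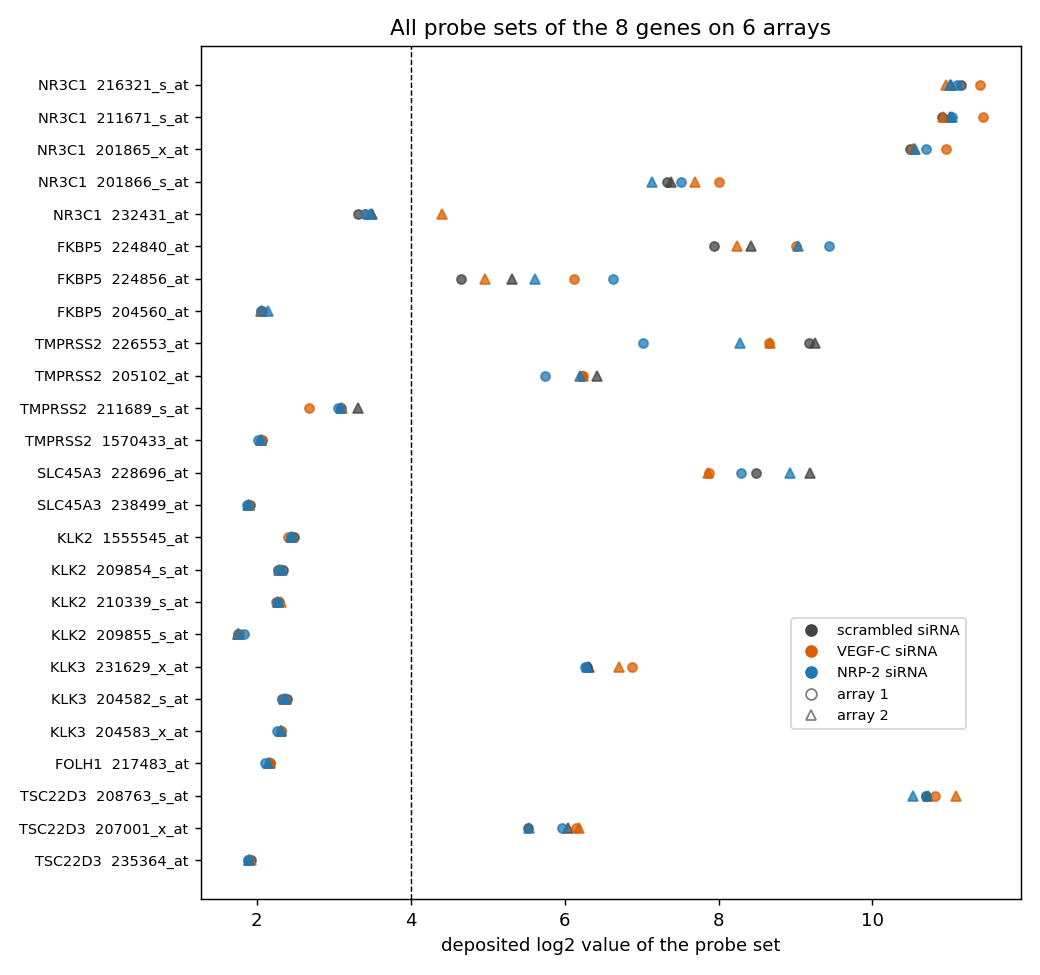
Deposited log2 values (horizontal axis) of the 25 probe sets of the 8 genes, 1 row each; colours give the siRNA group, circles and triangles the first and second array, and the dashed line the filter at log2 4. The 4 KLK2 probe sets, the FOLH1 probe set and 2 of the 3 KLK3 probe sets lie left of the line with points that nearly coincide, while the widest spread past it is that of TMPRSS2 226553_at.

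FKBP5, a co-chaperone of HSP90 that lowers the receptor's affinity for hormone and is itself induced by glucocorticoids, was highest with NRP-2 siRNA. Its brightest probe set (224840_at) read 7.94 and 8.42 with scrambled siRNA, 9.01 and 8.24 with VEGF-C siRNA, and 9.44 and 9.03 with NRP-2 siRNA. Both NRP-2 arrays stood above the other 4, and the VEGF-C arrays overlapped the scrambled ones. The mean was 2.08-fold higher with NRP-2 than with scrambled siRNA (log2 +1.06, SE 0.32, 95% interval 0.25 to 1.86), and limma's adjusted p was 0.299, so the difference did not pass the threshold over all genes. With VEGF-C siRNA the difference was +0.44 (SE 0.32, adjusted p = 0.546), and it was +0.06 without the first VEGF-C array and +0.83 without the second.

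The second measured FKBP5 probe set had the same order of group means. Probe set 224856_at read 4.65 and 5.32 with scrambled siRNA, 6.12 and 4.96 with VEGF-C siRNA, and 6.63 and 5.62 with NRP-2 siRNA, a difference of +1.14 (SE 0.59) for NRP-2 against scrambled siRNA. Both NRP-2 arrays again stood above both scrambled ones. The third, 204560_at, read 2.05 to 2.14 on all arrays, under the medians of the arrays. The NRP-2 difference of the brightest probe set lay between +0.81 and +1.30 when any 1 array was left out, and at +1.01 (SE 0.41) after adjustment for the G2 and mitosis level. For the mean of all 3 FKBP5 probe sets, 1 of them at the floor, the NRP-2 difference was +0.74 (SE 0.28).

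TSC22D3, the gene of the glucocorticoid-induced leucine zipper protein, a mediator of anti-inflammatory glucocorticoid action, stood slightly higher with VEGF-C siRNA. Its brightest probe set (208763_s_at) read 10.69 and 10.72 with scrambled siRNA, 10.81 and 11.08 with VEGF-C siRNA, and 10.69 and 10.53 with NRP-2 siRNA. Both VEGF-C arrays were above the other 4, by a narrow margin. The difference from scrambled siRNA was +0.24 with VEGF-C siRNA (SE 0.15, adjusted p = 0.484), at +0.38 without the first VEGF-C array and +0.10 without the second. It was -0.09 with NRP-2 siRNA (SE 0.15, adjusted p = 0.791). Probe set 207001_x_at read 5.53 and 6.05, then 6.15 and 6.19, then 5.96 and 5.54 in the same order of groups. Both VEGF-C arrays were again on top by a narrow margin, with a difference of +0.38 (SE 0.23) from scrambled siRNA. Its ending x_at means that some of its probes may bind transcripts of other genes. FKBP5 and TSC22D3 had their highest means in different groups, although neither difference passed the threshold.

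TMPRSS2, a serine protease of the luminal cell surface, had the widest range of the members and was lowest with NRP-2 siRNA. Its brightest probe set (226553_at) read 9.18 and 9.25 with scrambled siRNA, 8.66 and 8.67 with VEGF-C siRNA, and 7.02 and 8.28 with NRP-2 siRNA. The 3 groups did not overlap at all, in the order scrambled, VEGF-C and NRP-2, but the NRP-2 arrays lay 1.26 apart. The mean was 2.96-fold lower with NRP-2 than with scrambled siRNA (log2 -1.57, SE 0.40, 95% interval -2.56 to -0.57), with limma's adjusted p = 0.249. The difference was -0.94 without the first NRP-2 array and -2.20 without the second (adjusted p = 0.547 and 0.0555), and -0.52 for the mean of all 4 TMPRSS2 probe sets.

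With VEGF-C siRNA TMPRSS2 differed from scrambled siRNA by -0.55 (SE 0.40, adjusted p = 0.545). The standard error is set largely by the spread of the NRP-2 arrays in the shared estimate. With either NRP-2 array left out it was 0.11, at the same difference, and the adjusted p was 0.196. After adjustment for the G2 and mitosis level the difference was -0.11 with VEGF-C siRNA and -1.23 (SE 0.43) with NRP-2 siRNA.

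The other TMPRSS2 probe sets showed less. Probe set 205102_at read 6.23 and 6.42 with scrambled siRNA, 6.24 and 6.24 with VEGF-C siRNA, and 5.74 and 6.20 with NRP-2 siRNA, so the NRP-2 arrays were again the lowest pair, with a difference of -0.36 (SE 0.18) from scrambled siRNA. Probe sets 211689_s_at (2.68 to 3.31) and 1570433_at (2.02 to 2.07) lay around or under the array medians.

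SLC45A3, a transporter also called prostein that is characteristic of prostate epithelium, was lowest with VEGF-C siRNA. Probe set 228696_at read 8.49 and 9.19 with scrambled siRNA, 7.87 and 7.86 with VEGF-C siRNA, and 8.29 and 8.93 with NRP-2 siRNA. Both VEGF-C arrays stood under the other 4, while the NRP-2 and scrambled groups overlapped. The mean was 1.96-fold lower with VEGF-C than with scrambled siRNA (log2 -0.97, SE 0.31, 95% interval -1.75 to -0.20), and limma's adjusted p was 0.28. With NRP-2 siRNA the difference was -0.23 (SE 0.31, adjusted p = 0.758), and it was +0.12 without the second scrambled array and +0.09 without the first NRP-2 array. The only other SLC45A3 probe set, 238499_at, read 1.87 to 1.91 on all arrays.

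The level of SLC45A3 ran in part against that of the G2 and mitosis genes across the arrays. The scrambled array with the lowest mean of those genes, at 8.63, had the highest SLC45A3, at 9.19, and the array with the highest mean, at 11.15, had 7.87. In the scrambled and NRP-2 groups the array with more of these transcripts had less SLC45A3, and the VEGF-C arrays differed by 0.01. The order was not complete, since the second VEGF-C array, at a mean of 10.42, had the lowest SLC45A3 (7.86), under the first NRP-2 array at 10.99 (8.29). After adjustment for that level the VEGF-C difference was -0.41 (SE 0.24, adjusted p = 0.731) and the NRP-2 difference +0.20 (SE 0.21). Without the second scrambled array the VEGF-C difference was -0.62, and without the first it was -1.32.

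**Figure D2:**
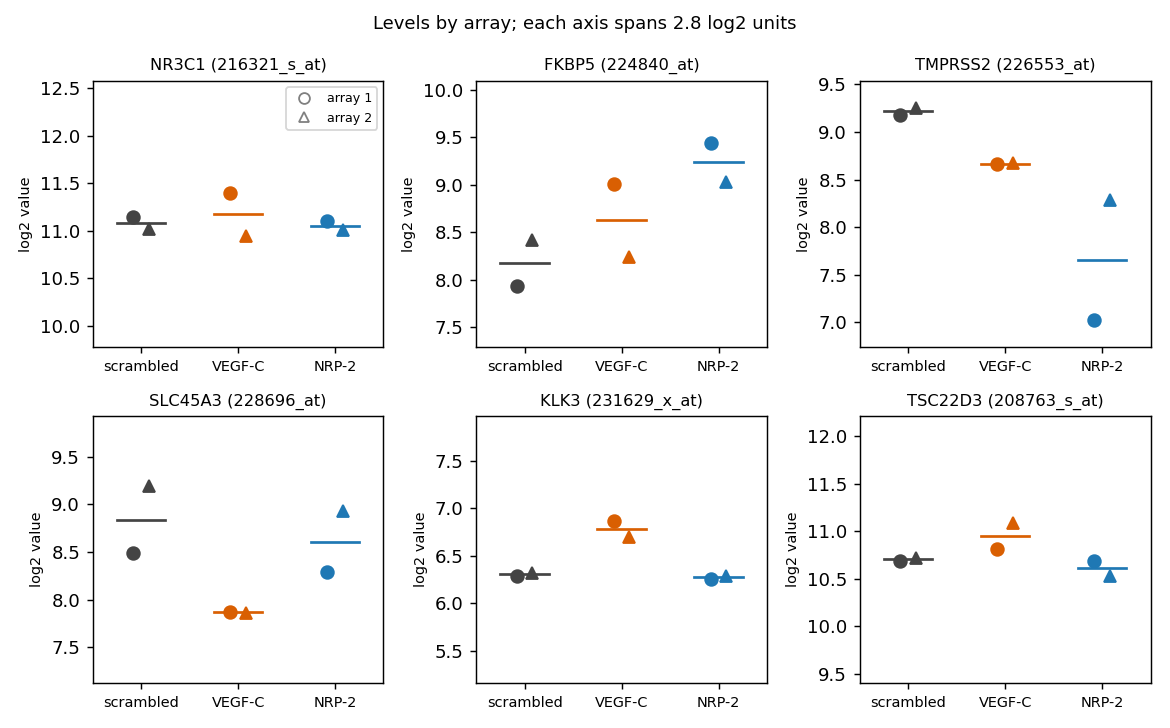
Deposited log2 values of the brightest probe set of the 6 genes past the filter, with circles and triangles for the first and second array of each siRNA group and a bar at the group mean; each vertical axis spans the same number of log2 units. TMPRSS2 steps down from scrambled (9.18 and 9.25) to VEGF-C (8.66 and 8.67) to NRP-2 siRNA (7.02 and 8.28), whereas SLC45A3 is lowest and KLK3 highest in the VEGF-C group. The KLK3 values are those of a probe set that is uncertain for this gene.

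**Figure D3:**
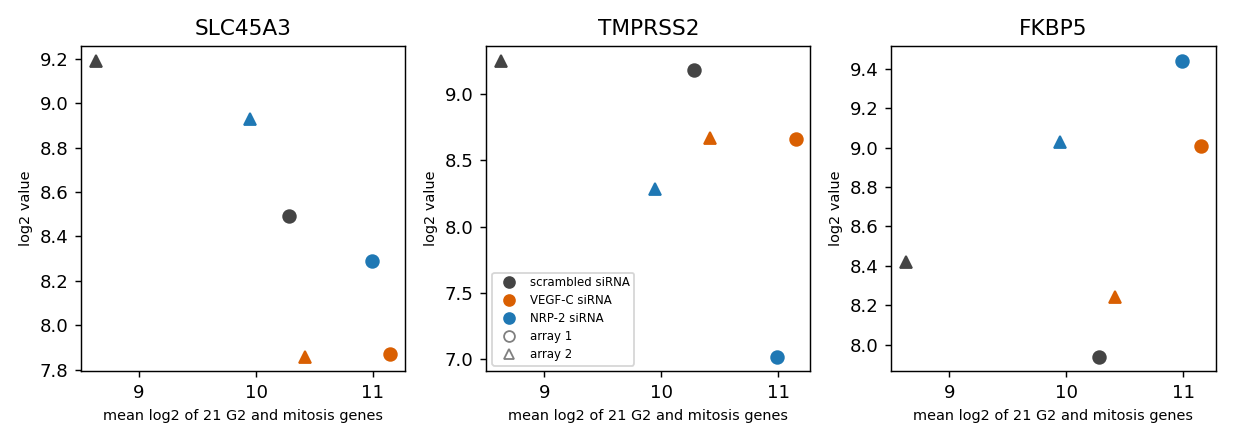
Log2 values of SLC45A3, TMPRSS2 and FKBP5 (vertical axes) against the mean log2 value of 21 G2 and mitosis genes (horizontal axis) on each of the 6 arrays, coloured by siRNA group. The scrambled array at a mean of 8.63 has the highest SLC45A3, at 9.19, and the VEGF-C array at 11.15 is at 7.87, while FKBP5 at means of 10.28 and 10.99 reads 7.94 and 9.44.

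KLK3, which encodes prostate-specific antigen, read at the floor in 2 of its 3 probe sets. Probe set 204582_s_at read 2.33 to 2.39 and 204583_x_at 2.26 to 2.32 over the 6 arrays, below the median of every array. The third, 231629_x_at, read 6.29 and 6.32 with scrambled siRNA, 6.87 and 6.70 with VEGF-C siRNA, and 6.26 and 6.29 with NRP-2 siRNA. Both VEGF-C arrays stood above the other 4, a difference of +0.48 from scrambled siRNA (SE 0.12, 95% interval 0.17 to 0.79, limma's adjusted p = 0.242) and, for NRP-2 against VEGF-C siRNA, of -0.51 (SE 0.12, adjusted p = 0.144). Between NRP-2 and scrambled siRNA it was -0.03.

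The 231629_x_at values are reported as uncertain for KLK3. The ending x_at marks probe sets in which some probes may bind transcripts of other genes, and the 2 probe sets that disagree with it name the same gene. What 231629_x_at measured in these cells was not tested. The gene that varied most like it over the 6 arrays was WDR74, a factor of ribosome and nuclear RNA assembly, with a root mean square difference of 0.029 after centring each gene on its own mean. It is the nearest of all genes by selection. Next were the mitochondrial fusion gene MFN2 and the autophagy receptor gene CALCOCO2, each at 0.043, against a median of 0.32 for all genes tested.

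KLK2, a secreted protease related to KLK3, and FOLH1, which encodes prostate-specific membrane antigen, stood at the floor throughout. The 4 KLK2 probe sets had means of 1.77 to 2.45, and none ranged over more than 0.08 between the highest and lowest array. The FOLH1 probe set read 2.11 to 2.17. The 3 probe sets that the annotation assigns to FOLH1 together with FOLH1B, a near-identical copy, are no members, and they read 2.30 to 3.14. Values this close to the floor are compressed, so no group difference could be read from them, and without detection calls the genes are not called absent.

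In the direct comparison of NRP-2 with VEGF-C siRNA, TMPRSS2 stood lower and SLC45A3 and FKBP5 higher, again with no difference past the threshold. KLK3 stood lower only in 231629_x_at, the probe set reported above as uncertain for it, while its other probe sets read at the floor. TMPRSS2 was 2.02-fold lower (log2 -1.02, SE 0.40, 95% interval -2.01 to -0.02, adjusted p = 0.27), at -0.38 without the first NRP-2 array and -1.65 without the second. SLC45A3 was 1.67-fold higher (log2 +0.74, SE 0.31, -0.03 to 1.52, adjusted p = 0.291), at +1.06 without the first NRP-2 array and +0.42 without the second. FKBP5 differed by +0.61 (SE 0.32, adjusted p = 0.385), at +1.0 without the first VEGF-C array and +0.23 without the second. It was +0.41 without the first NRP-2 array. TSC22D3 differed by -0.33 (SE 0.15, adjusted p = 0.316), at -0.20 without the second VEGF-C array, and NR3C1 by -0.12 (SE 0.18, adjusted p = 0.776).

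Of the 6 member genes tested, 0 were called in any of the 3 comparisons by limma at an adjusted p under 0.05, as were 0% of the 11131 genes tested. The lowest adjusted p over all genes was 0.204, 0.138 and 0.098 for VEGF-C against scrambled, NRP-2 against scrambled and NRP-2 against VEGF-C siRNA. At an unadjusted p under 0.05, 2 of 6 members passed in each comparison, beside 14.8%, 13.3% and 18.2% of all genes. Higher and lower, the last share divides into 9.54% and 8.66%. These were SLC45A3 and KLK3 with VEGF-C siRNA, FKBP5 and TMPRSS2 with NRP-2 siRNA, and TMPRSS2 and KLK3 between the targeting siRNAs. KLK3 entered these counts only through the probe set reported above as uncertain for it, while its other probe sets read at the floor. After adjustment for the G2 and mitosis level these counts were 0, 1 and 3. The members were chosen with earlier results of these data known, so the counts are no test of members against all genes.

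Groups that did not overlap were common in all genes, at 2 arrays a group. Against scrambled siRNA, 4 of 6 members did not overlap with VEGF-C siRNA (53.4% of all genes), 2 above (26.8%) and 2 below (26.6%). With NRP-2 siRNA 3 of 6 did not (49.7%), 1 above (25.3%) and 2 below (24.4%). Between the targeting siRNAs 5 of 6 did not (46.5%), 2 with NRP-2 siRNA above (24.1%) and 3 below (22.4%). KLK3 was among the members without overlap in each comparison, only through the probe set reported as uncertain for it. Its difference between NRP-2 and scrambled siRNA was -0.03. The median absolute difference of the 6 members was 0.46, 0.16 and 0.56 in these comparisons, beside 0.20, 0.20 and 0.22 for all genes. The 2 comparisons against scrambled siRNA share its arrays. Here too the members were chosen with earlier results known, so a larger median is no test of the members.

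**Figure D4:**
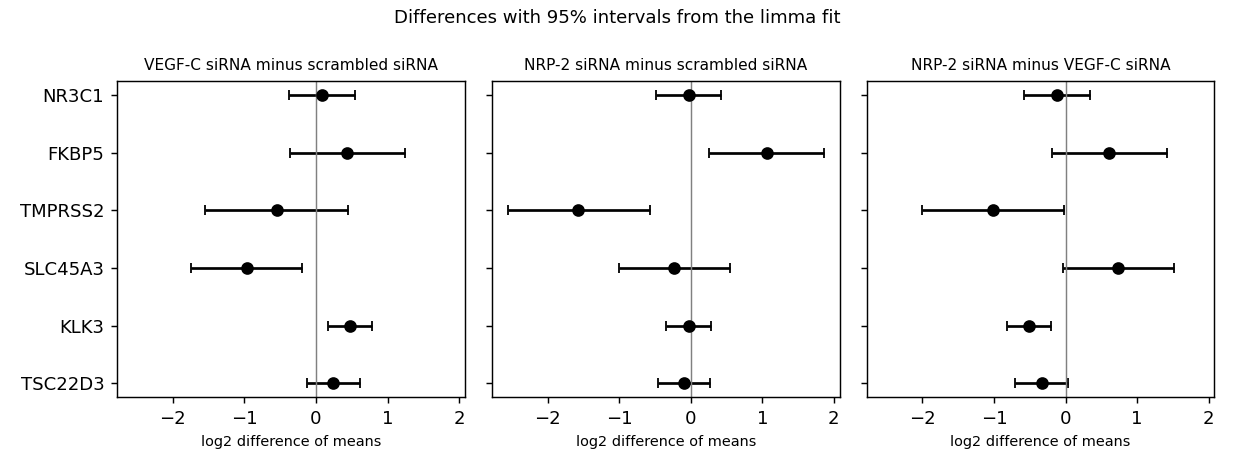
Log2 differences of group means with 95% intervals from the limma fit for the 6 genes past the filter, in 3 panels for the 3 comparisons. Intervals that leave out 0 are those of SLC45A3 and KLK3 with VEGF-C siRNA, FKBP5 and TMPRSS2 with NRP-2 siRNA, and TMPRSS2 and KLK3 between the targeting siRNAs, and none of these has an adjusted p under 0.05. The KLK3 intervals rest on a probe set that is uncertain for this gene.

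Other genes of steroid signalling were read from 6 lists. Of 17 other nuclear receptors past the filter, 0 were called, and at an unadjusted p under 0.05 there were 0 higher and 3 lower with VEGF-C siRNA and 0 higher and 1 lower with NRP-2 siRNA. Beside the counts of all 6 lists stand the shares over all genes. They were 6.95% higher and 7.8% lower with VEGF-C siRNA, and 6.43% and 6.85% with NRP-2 siRNA. The median of the 17 differences was -0.19 with VEGF-C and -0.11 with NRP-2 siRNA, where the medians of all genes were 0 and 0.01. Both VEGF-C arrays stood above both scrambled ones for 1 of the 17 and below them for 8, beside 26.8% and 26.6% of all genes. With NRP-2 siRNA the counts were 3 above and 6 below, beside 25.3% and 24.4%. NR2F1, an orphan receptor, read 13.36 and 13.18 with scrambled siRNA, 12.52 and 12.56 with VEGF-C siRNA and 12.98 and 13.13 with NRP-2 siRNA (differences of -0.73 and -0.21). RXRA, the partner of many nuclear receptors, read 10.30 and 10.28, then 10.36 and 10.08, then 9.24 and 9.54, a difference of -0.90 with NRP-2 siRNA (-0.49 to -1.05 under the alternatives). The vitamin D receptor gene VDR and the fatty acid sensor gene PPARA were at -0.56 and -0.75 with VEGF-C siRNA. The progesterone receptor gene PGR did not pass the filter, at 2.32 to 2.41.

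Chaperones of the receptor complex differed little. Of 14 past the filter, 0 had an unadjusted p under 0.05 with VEGF-C siRNA. With NRP-2 siRNA 1 did, the co-chaperone gene BAG1, at 9.70 and 9.84 with scrambled and 8.84 and 9.33 with NRP-2 siRNA (-0.69, SE 0.22). HSP90AA1 was at -0.35 with VEGF-C and +0.04 with NRP-2 siRNA, the J-domain gene DNAJB1 at +0.13 and +0.25, and the immunophilin gene PPID at +0.13 and +0.19. The medians of the list were +0.01 and +0.06.

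Among coregulators and luminal pioneer factors, 3 of 16 had an unadjusted p under 0.05 as lower with VEGF-C siRNA and 0 in either direction with NRP-2 siRNA. They were the prostate homeobox gene HOXB13 (-0.58, SE 0.22), the pioneer factor gene GATA2 (-0.53, SE 0.18) and the SUMO ligase gene PIAS1 (-0.61, SE 0.20). HOXB13 read 10.21 and 10.64 with scrambled siRNA, 9.94 and 9.74 with VEGF-C siRNA, and 10.40 and 10.81 with NRP-2 siRNA. After the same adjustment GATA2 was at -0.28, HOXB13 at -0.28 and PIAS1 at -0.45 with VEGF-C siRNA. FOXA1 was at -0.28 and -0.27 with VEGF-C and NRP-2 siRNA, and the list's medians were +0.09 and -0.05.

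Among other glucocorticoid-induced genes the values past an unadjusted p of 0.05 with VEGF-C siRNA all lay above scrambled siRNA. Of 16 past the filter, in a list chosen with earlier results of these data known, 0 were called. Both VEGF-C arrays stood above both scrambled ones for 9 and below them for 5, beside 26.8% and 26.6% of all genes. The median difference was +0.37. At an unadjusted p under 0.05, 5 were higher and 0 lower, beside 6.95% and 7.8% of all genes. The 5 were the transcription factor gene KLF6 (+1.06, SE 0.28), the EGF receptor inhibitor gene ERRFI1 (+0.52, SE 0.13), the kinase gene SGK1 (+1.36, SE 0.44), the phosphatase gene DUSP1 (+1.23, SE 0.42) and the NF-kB inhibitor gene TNFAIP3 (+0.61, SE 0.24). SGK1, DUSP1 and TNFAIP3 were named after their values were seen. KLF6, DUSP1 and TNFAIP3 are also induced by other signals, TNFAIP3 and NFKBIA by NF-kB. SGK1 read 7.70 and 7.37 with scrambled siRNA, 8.77 and 9.02 with VEGF-C siRNA, and 8.72 and 7.39 with NRP-2 siRNA, so that the NRP-2 arrays lay on both sides. After the same adjustment KLF6 was at +0.74, SGK1 at +0.83, DUSP1 at +0.59, ERRFI1 at +0.40 and TNFAIP3 at +0.71. Genes of the list near the floor included ZBTB16 (2.06 to 2.08), a sensitive glucocorticoid target.

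With NRP-2 siRNA the same list had 2 genes higher and 1 lower at an unadjusted p under 0.05, and a median of +0.19. NFKBIA read 10.87 and 11.07 with scrambled siRNA, 11.45 and 11.45 with VEGF-C siRNA and 12.05 and 11.44 with NRP-2 siRNA (+0.48 and +0.77, SE 0.22). TNFAIP3 was at +0.60 and the stress gene GADD45B at -0.49.

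Other androgen-induced genes had no common direction. Of 19 past the filter, 0 were called, 2 were higher and 2 lower at an unadjusted p under 0.05 with VEGF-C siRNA, and 0 higher and 1 lower with NRP-2 siRNA, with medians of +0.12 and +0.11. SPDEF, an epithelial transcription factor of the prostate, read 9.5 and 9.81 with scrambled siRNA, 9.0 and 8.49 with VEGF-C siRNA, and 9.88 and 10.32 with NRP-2 siRNA, the VEGF-C arrays lowest as for SLC45A3. The exporter gene ABCC4 was at -0.78 (SE 0.19) with VEGF-C siRNA, and UAP1, an enzyme of amino sugar synthesis, and C1orf116, the latter named after its values were seen, were at +0.53 and +0.55. The elongation factor gene ELL2 read 13.04 and 12.78 with scrambled siRNA, 12.72 and 12.95 with VEGF-C siRNA, and 11.66 and 12.11 with NRP-2 siRNA (-1.03, SE 0.20), the NRP-2 arrays lowest as for TMPRSS2. The secretory genes KLK4 (2.42 to 2.51) and ACP3 (2.81 to 3.95) were under the filter.

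Of 18 genes of steroid hormone metabolism named on the array, 7 passed the filter. With VEGF-C siRNA 0 had an unadjusted p under 0.05, and with NRP-2 siRNA 1 higher and 1 lower did. SRD5A1, which reduces testosterone to dihydrotestosterone, read 9.69 and 9.81 with scrambled siRNA, 9.93 and 10.79 with VEGF-C siRNA, and 10.76 and 10.81 with NRP-2 siRNA (+1.04, SE 0.28). STS, which frees steroids from their sulphates, was at -0.89 (SE 0.25) with NRP-2 siRNA and at -0.31 for the mean of all its probe sets. HSD17B4 and H6PD were at -0.26 and +0.25 with VEGF-C siRNA. The medians of the list were +0.03 and +0.07, and both enzymes that interconvert cortisol and cortisone, HSD11B1 (2.44 to 2.61) and HSD11B2 (1.76 to 1.78), read at the floor.

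**Figure D5:**
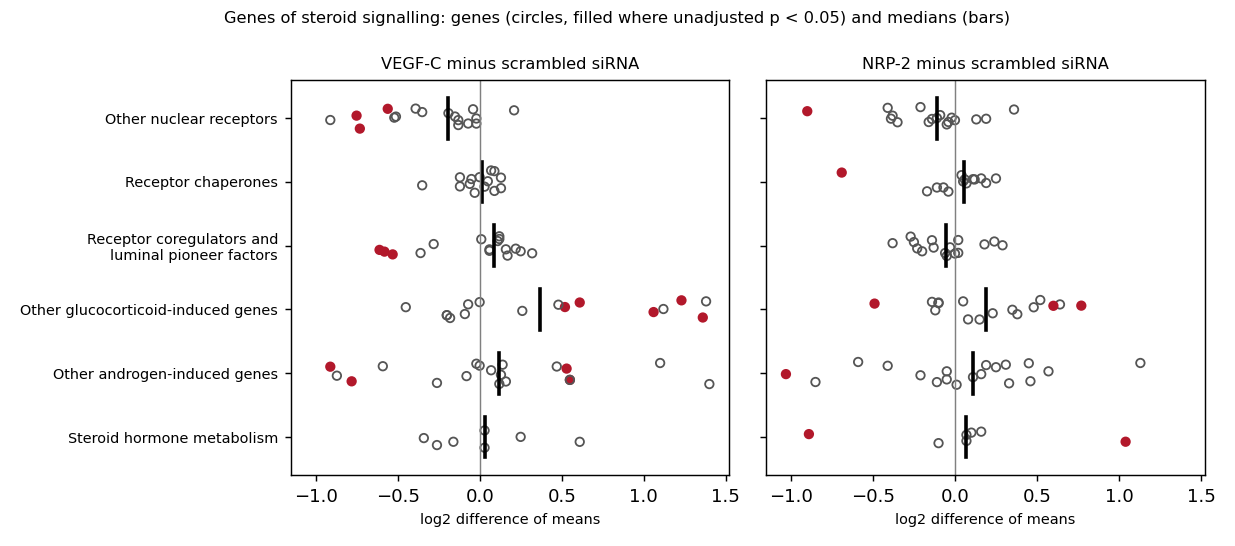
Log2 differences of means against scrambled siRNA (horizontal axis) for the genes past the filter in 6 lists, VEGF-C siRNA on the left and NRP-2 siRNA on the right; circles are genes, filled where the unadjusted p was under 0.05, and bars are medians. The median of the other glucocorticoid-induced genes lies at +0.37 on the left and +0.19 on the right, and no filled gene had an adjusted p under 0.05.

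For each remaining member the 3 nearest of the 11131 genes over the 6 arrays were listed, measured as for KLK3. Being the nearest of all genes over 6 arrays, they lie under the median by construction. Nearest to TMPRSS2 were ZNF594 (0.059), USP12 (0.099) and MARCHF8 (0.101), against a median of 0.77. ZNF594 read 7.97, 7.99, 7.47, 7.56, 5.93 and 7.15 on the scrambled, VEGF-C and NRP-2 arrays in that order, with the same low first NRP-2 array. Nearest to SLC45A3 were the G protein gene GNAI1 (0.073), the DNA demethylase gene TET1 (0.102) and RAPGEF5 (0.107), against 0.53. FKBP5 had NPHP4 (0.114), LRRC8B (0.151) and USP31 (0.157), against 0.55. NR3C1 had the chromatin insulator gene CTCF (0.043), SENP8 (0.043) and BLACAT1 (0.045), against 0.26, and TSC22D3 had TGDS (0.039), SHOC2 (0.043) and IKBKG (0.045), against 0.27. Members and companions with a small range are close partly because neither varied much.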

How the data were processed

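The members and lists were chosen with earlier results of these data known. The authors deposited 1 log2 value per probe set and array. The submitters' processing notes name Partek and GCRMA, a method that corrects background by probe sequence, normalizes arrays and compresses values near the floor. Their versions are not stated in the labels. Probe sets took gene names from the 2016 platform annotation (41091 with 1 gene, 1801 with several, 11721 with none, 62 controls, and 0 symbols changed). For tests each gene was its brightest probe set averaging log2 4 or more, which gave 11131 genes. All 6 arrays entered 1 limma fit (version 3.58.1, R 4.3.3) with 3 residual degrees of freedom. Tests were two-sided, with Benjamini-Hochberg adjustment over all genes and a threshold of 0.05. Differences are between log2 group means, and SE is the fit's standard error. All members, VEGFC and NRP2 were named, with the 4 genes of each list that had the smallest p against scrambled siRNA and, for each tested member, the 3 genes with the smallest root mean square difference. There were 16 alternatives per comparison. The fit was tested on simulated data. The number of arrays limits the precision.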

Additional observations from a re-analysis of the deposited data

How the results depend on the processing

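No member was called by limma at an adjusted p under 0.05 in any of the 3 comparisons under any of the alternatives run. For KLK3 the mean of all its probe sets was under the low-value filter and gave no value. Over all genes, 0 were called in each comparison with any 1 array left out. Without the low-value filter 1 gene was called for VEGF-C against scrambled siRNA and 1 for NRP-2 against VEGF-C siRNA, and with every probe set tested on its own 2 were called for NRP-2 against scrambled siRNA and 11 for NRP-2 against VEGF-C siRNA. The cause was not tested. The labels do not say whether equal replicate numbers mark a shared culture or day. The first array had the higher G2 and mitosis mean in each group. The deviations of same-numbered arrays correlated at 0.11, 0.58 and 0.12 for the pairs scrambled and VEGF-C, scrambled and NRP-2, and VEGF-C and NRP-2. With the replicate block 0 genes were called in each comparison, and 1997, 1909 and 2269 had an unadjusted p under 0.05, against 1642, 1478 and 2026 without it. Among the members the block moved 1 value across an unadjusted p of 0.05, SLC45A3 between NRP-2 and VEGF-C siRNA. Its limma p-value was 0.0172 with the block and 0.057 without it, and its adjusted p was 0.166 and 0.291.

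Across the alternatives, 276 member values kept their sign and 9 did not, while 874 values of list genes kept it and 22 did not. Many of the alternatives could not change a difference of group means. They changed only the low-value filter, the number of tests, the variance estimate, the replicate block or the arrays of the group outside the comparison. The sign was fixed in advance there, so these counts overstate how stable the signs were. For NR3C1 the VEGF-C difference was -0.11 with the G2 and mitosis covariate and from -0.14 to 0.31 with 1 array left out. Its NRP-2 difference was 0.03 for the mean of its probe sets and from -0.10 to 0.03 with 1 array left out, and that between NRP-2 and VEGF-C siRNA ran from -0.34 to 0.11. For SLC45A3 the NRP-2 difference was 0.20 with the covariate and ran from -0.58 to 0.12 with 1 array left out. For VEGFC the NRP-2 difference was -0.27 with the covariate and ran from -0.14 to 0.18.

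With the mean of all probe sets of a gene, the VEGF-C difference was 0.07 for RXRA, -0.07 for BAG1, -0.06 for PPID and 0.12 for ELL2, and the NRP-2 difference was 0.04 for VDR, 0 for HSD17B4 and -0.01 for H6PD. With the covariate the VEGF-C difference of STS was 0.04, and the NRP-2 difference was 0.08 for ABCC4 and -0.11 for DUSP1. With 1 array left out, the VEGF-C difference ran from -0.21 to 0.07 for RXRA, from -0.15 to 0.25 for BAG1 and from -0.21 to 0.05 for ELL2. The NRP-2 difference ran from -0.03 to 0.12 for HSP90AA1, from -0.03 to 0.39 for HOXB13, from 0 to 0.13 for HSD17B4 and from -0.07 to 0.20 for H6PD. It ran from -0.20 (without the first NRP-2 array) to 0.96 for DUSP1 and from -0.14 (without the same array) to 1.19 for SGK1. The cause of these changes was not tested.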
